A study of Homo sapiens with 9 samples.

Results

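The 54 genes described here code for the proteins that license, start and carry out DNA replication, together with enzymes that supply nucleotides, proteins that act on newly copied chromatin and regulators of S phase entry. They were chosen by symbol as rows of the deposited count table, and all 54 were found among its 26364 gene names. They fall into 14 complexes or functions, and all 54 passed the expression filter of each of the 3 comparisons. RNA was sequenced from A549 cells, a human lung adenocarcinoma line, in 9 libraries of 4 groups. The control group (2 libraries) was A549 without the fusion. The *LA* group (2 libraries) carried *LOC388942-ALK*, a fusion of *ALK* with an intergenic region, which was made by infecting A549 cells that express Cas9 with lentiviral guides against both loci. The sg*FOS* group (2 libraries) and the sgScr group (3 libraries) were *LA* cells that also received guides against *FOS* or a scramble guide. According to the methods, fusion lines were grown from single cells, so that an *LA* line may stand for 1 clone. The labels say neither which *FOS* guide was used nor whether the libraries of a group came from separate cultures, and in that case the p-values measure only the spread between these libraries, which may be technical.

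Replication is prepared in G1, when the origin recognition complex, CDC6 and CDT1 load the ring of MCM2 to MCM7 onto DNA, and starts when CDC45 and the GINS complex turn the loaded ring into an active helicase. Polymerase alpha-primase then lays primers, polymerases epsilon and delta extend them together with the sliding clamp PCNA, and RPA covers the exposed single strands. Many of these genes are transcribed at the border of G1 and S phase under E2F factors, and their mRNA levels are widely used as a mark of proliferating tumor cells.

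E2F binding words were therefore looked up in the RefSeq promoter windows of GRCh38.p14, which reach from 250 bases before to 50 bases after a gene start. Windows were found for 47 of the 54 genes. The words searched on both strands were TTTCCCGC, TTTCGCGC, TTTGCCGC and TTTGGCGC. At least 1 of them stood in the windows of 23 of the 47 genes (48.9%), against 3.99% of all 27305 genes with a window and 7.5% of the 40 genes of the G2 and M phase list. They occurred in both licensing loaders, in 4 of 6 MCM genes, in 5 of 9 helicase activation genes and in all 3 polymerase epsilon genes, and in none of the windows of the polymerase delta and RPA genes. These totals count every member of a complex, including any without a window, which could not be searched. The AP-1 word TGANTCA, which FOS and JUN dimers bind, was found for 1 of the 47 genes (2.13%), against 9.37% of all genes. The CCAAT box (CCAAT on either strand) was found for 59.6% of the members and 39.7% of all genes. The CHR word TTTGAA, known from promoters of G2 and M phase genes, stood in 4.26% of the members, in 18.2% of all genes and in 65.0% of the G2 and M phase genes. The 6 stretches printed here are those of genes with per-library values in which an E2F word lies wholly before the gene start, and they show words that few of all promoters hold. Each is read 5′ to 3′ along the gene's strand, with E2F words in capitals. They cover chr6:52284883-52284942 (*MCM3*, minus strand), chr2:74958586-74958642 (*POLE4*, plus strand), chr16:85688955-85689011 (*GINS2*, minus strand), chr20:5126648-5126707 (*PCNA*, minus strand), chr20:33686386-33686444 (*E2F1*, minus strand) and chr16:88803728-88803787 (*CDT1*, plus strand).
MCM3: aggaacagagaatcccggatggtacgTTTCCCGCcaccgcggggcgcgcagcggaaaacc
POLE4: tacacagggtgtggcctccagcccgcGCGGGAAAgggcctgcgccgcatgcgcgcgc
GINS2: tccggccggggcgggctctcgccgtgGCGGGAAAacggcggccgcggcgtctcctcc
PCNA: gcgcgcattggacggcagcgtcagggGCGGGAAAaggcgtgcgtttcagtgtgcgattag
E2F1: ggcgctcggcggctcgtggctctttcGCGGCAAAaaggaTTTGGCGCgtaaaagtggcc
CDT1: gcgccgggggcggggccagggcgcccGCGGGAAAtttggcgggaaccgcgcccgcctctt
In *PCNA* the word ends 51 bases before the gene start, and in *E2F1*, which has 2 words in this stretch, the nearer ends 12 bases before it. A match is a string of letters and was not tested as a binding site.

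The libraries held 14507228 to 20456341 counts, and no member was at 0 in any of them. The lowest member count was 28, for *CCNE2* in control 1. Replicates of sgScr and sg*FOS* were close: over the members their chi-square, divided by its degrees of freedom, was 1.51 to 2.48, where sampling noise alone gives about 1. Both other groups were far apart, at 171 between the control libraries and 35.4 between the *LA* libraries. *FOS* had 167 and 155 counts in control, 5448 and 1660 in *LA*, 4198, 4037 and 3528 in sgScr, and 1008 and 1113 in sg*FOS*. *ALK*, counted over the whole gene, was at 0 in both control libraries and at 0 to 15 counts in the other libraries. The 13 epithelial and A549 markers were all above 0 in every library, with a summed level of 23969 to 49410 CPM (counts scaled to a common library size), whereas summed fibroblast markers reached 14.0 to 26.8 CPM, immune markers 37.7 to 77.0 CPM and endothelial markers 0.057 to 1.12 CPM. *PTPRC*, which defines leukocytes, was at 0 in every library. In bulk RNA, fewer cells in S phase and less RNA per cell cannot be told apart.

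Levels are given below as CPM scaled with TMM factors over all 9 libraries. Summed over the 54 genes, the level was 6938 and 5485 CPM in control 1 and 2, 5082 and 3738 CPM in *LA* 1 and 2, 5319, 5342 and 5481 CPM in sgScr, and 4910 and 4811 CPM in sg*FOS*. The sg*FOS* libraries lay below all sgScr libraries, and the *LA* libraries lay below both controls. Scaled by library size alone, the sums were 5543 and 5409 CPM in control, 5432 and 4007 CPM in *LA*, 5465, 5445 and 5542 CPM in sgScr, and 4993 and 4949 CPM in sg*FOS*. On that scale the ranges of control, *LA* 1 and sgScr met, the sg*FOS* libraries still lay below sgScr, and *LA* 2 was lowest. The group mean was highest in control for 24 of the 54 genes, in sgScr for 23, in *LA* for 6 and in sg*FOS* for 1, and it was lowest in *LA* for 22, in control for 18, in sg*FOS* for 14 and in sgScr for 0. In the heat map of levels by library, the sgScr and sg*FOS* columns are nearly uniform within their groups, while the control and *LA* columns change from replicate to replicate.

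**Figure D1:**
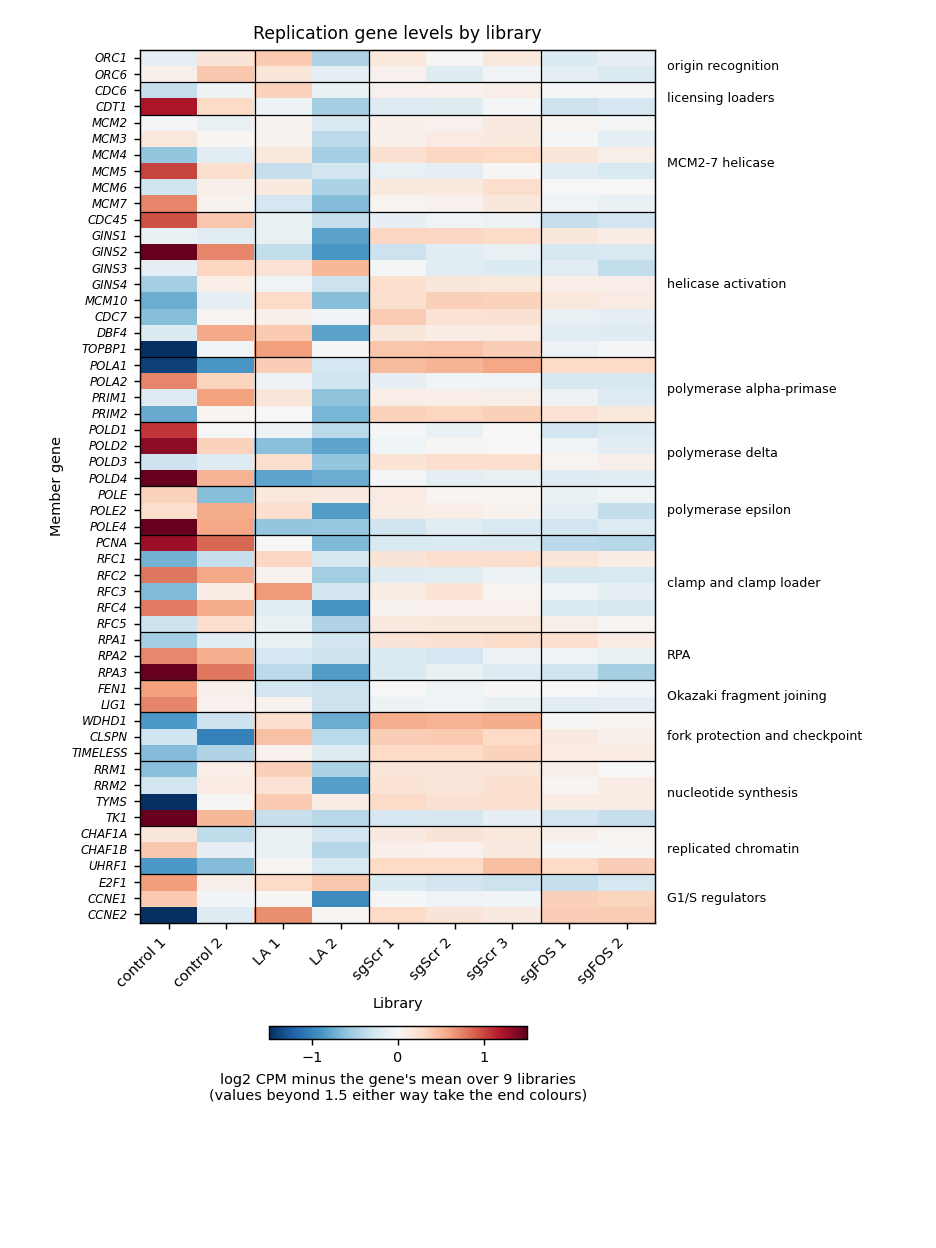
Level of each of the 54 genes (rows, grouped by complex) in each of the 9 libraries (columns), as log2 CPM minus the gene's mean over the 9 libraries, with red for higher and blue for lower levels and colours ending at 1.5 either way. Control 1 holds the strongest colours in both directions, *LA* 2 is mostly blue, and the sg*FOS* columns are paler or bluer than the sgScr columns in most rows.

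Editing *FOS* was compared with the scramble guide to ask what follows in *LA* cells when *FOS* is targeted. Most of the replication genes were slightly lower in sg*FOS* cells. Of the 54 genes, 51 had a log2 fold change below 0 (50.2% of all 14196 genes tested), with a median of -0.14 against -0.0015 over all genes. With edgeR's quasi-likelihood test and a Benjamini-Hochberg adjusted p under 0.05 over all genes, 28 genes were lower, or 51.9% of the members where 10.5% of all genes were called lower. A single gene, *CCNE1*, was higher, where 12.2% of all genes were called higher. For 42 genes both sg*FOS* libraries lay below all 3 sgScr libraries (24.5% of all genes), and for 2 genes above them (24.0% of all genes). The changes were small, from -0.52 for *WDHD1* to 0.40 for *CCNE1*, and at a threshold that asks for a log2 change above 0.5 either way together with an unadjusted p below 0.05 the count was 1 lower (2.03% of all genes). The DESeq2 Wald test called 19 of the 54 genes lower and 1 higher, and the share of all genes it called is not given here. In an edgeR fit that drew its spread from all 9 libraries no member was called, nor was any at an unadjusted p under 0.05.

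**Figure D2:**
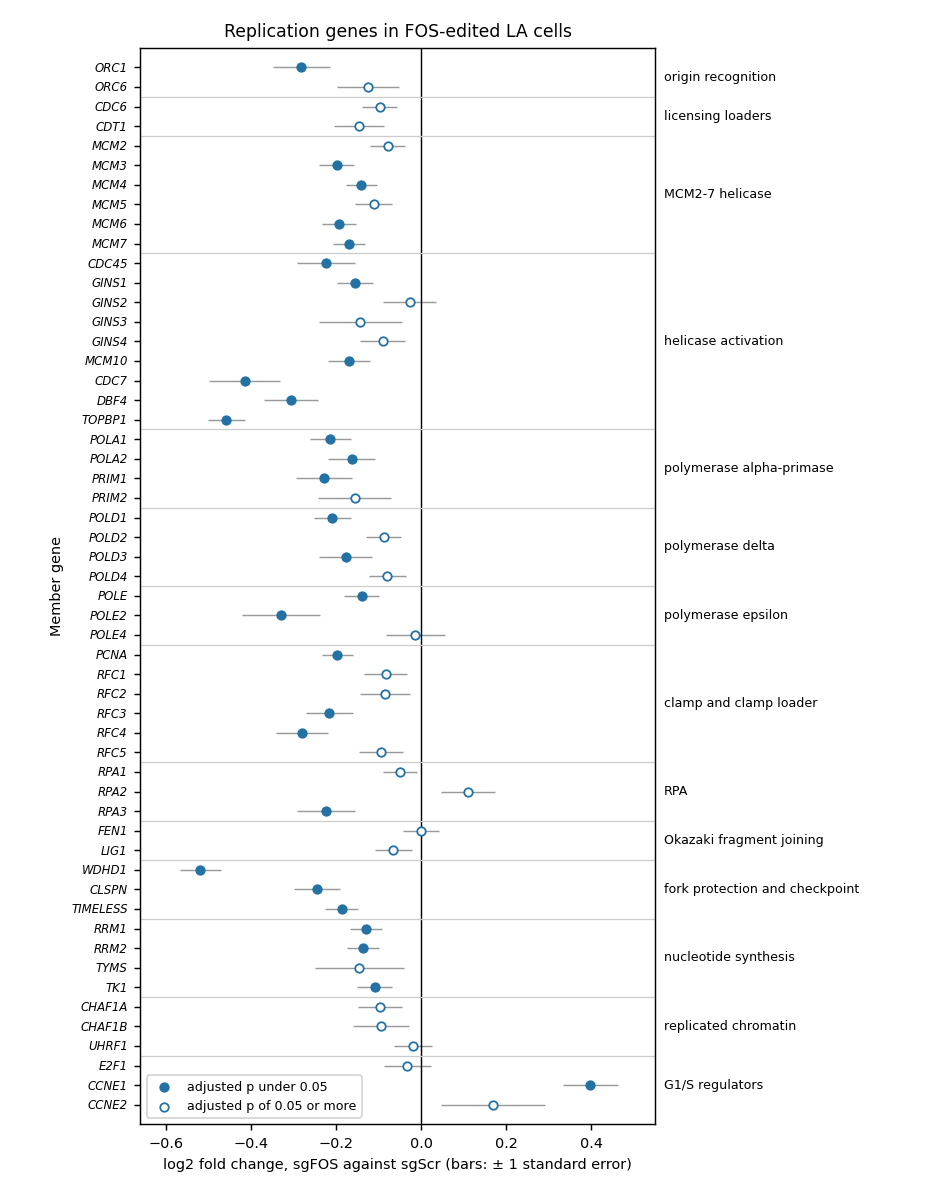
log2 fold change of each of the 54 genes in sg*FOS* against sgScr libraries (horizontal axis), with bars of 1 standard error from edgeR and filled circles for an adjusted p under 0.05. All but *CCNE1*, *CCNE2* and *RPA2* lie at or left of 0, with *WDHD1*, *TOPBP1* and *CDC7* farthest left.

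Among the genes that mark and license origins, *ORC1*, the large subunit of the origin recognition complex, had 43.2, 39.2 and 43.3 CPM in sgScr and 33.4 and 35.3 CPM in sg*FOS*. The sg*FOS* values lay below all sgScr values, and its log2 fold change was -0.28 (SE 0.066, adjusted p = 0.0015 in edgeR's quasi-likelihood test). *ORC6* did not pass the test. *CDC6*, which helps to load the helicase, had 109, 108 and 111 CPM in sgScr and 103 and 101 CPM in sg*FOS*, a log2 fold change of -0.097 (SE 0.042, edgeR adjusted p = 0.090). *CDT1*, the loader that must be removed once S phase begins, had 51.3, 51.8 and 57.7 CPM in sgScr and 47.3 and 49.0 CPM in sg*FOS*. The groups did not overlap for either loader, and *CDT1*, at -0.15 (SE 0.060, adjusted p = 0.073), passed the threshold when fold changes were corrected for transcript length and GC content (-0.25, adjusted p = 0.0015).

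The genes of the MCM2 to MCM7 ring were called lower in 4 of 6 cases, with log2 fold changes from -0.20 to -0.079. *MCM3* moved most, at 157, 163 and 165 CPM in sgScr and 146 and 135 CPM in sg*FOS* (log2 fold change -0.20, SE 0.041, edgeR adjusted p = 0.00032). Both sg*FOS* libraries were below the scramble range. Of the 9 genes that activate the ring, 6 were called lower. *TOPBP1*, a scaffold needed both to assemble the active helicase and to switch on the ATR checkpoint kinase, fell from 116, 118 and 113 CPM in sgScr to 82.1 and 85.8 CPM in sg*FOS*. Its log2 fold change was -0.46 (SE 0.044, edgeR adjusted p = 1.4e-10), and the groups were far from overlapping. *CDC7* and *DBF4*, the kinase that fires origins and its regulatory subunit, had log2 fold changes of -0.41 and -0.31 and were both called. *GINS2* moved least, with a log2 fold change of -0.027.

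At the fork, all 3 genes of the protection and checkpoint group were called lower. *WDHD1*, which ties the helicase to polymerase alpha, had 86.1, 85.1 and 87.1 CPM in sgScr and 59.6 and 60.2 CPM in sg*FOS*. The gene lies on chromosome 14 from 55405667 to 55493823 (GRCh37, the build called hg19 to which the reads were aligned). This was the lowest fold change of the 54 genes (-0.52, SE 0.048, edgeR adjusted p = 6.5e-11), and each group was tight and well apart. *CLSPN*, the adaptor that passes the ATR signal to CHK1, was at -0.25 and *TIMELESS*, its partner at the fork, at -0.19. Polymerase alpha-primase had 3 of 4 genes called lower. *PRIM1*, the catalytic primase subunit, had 38.6, 38.5 and 38.1 CPM in sgScr and 34.2 and 31.3 CPM in sg*FOS* (log2 fold change -0.23, SE 0.066, edgeR adjusted p = 0.0098). The groups did not overlap, although *PRIM1* missed the threshold with the length and GC correction (adjusted p = 0.078) and in DESeq2 (adjusted p = 0.082). Counting these settings, its call was lost in 5 and kept in 10.

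Of the replicative polymerases, *POLD1*, the catalytic subunit of polymerase delta, had 131, 123 and 133 CPM in sgScr and 108 and 114 CPM in sg*FOS*. It lay lower in both sg*FOS* libraries, by a log2 fold change of -0.21 (SE 0.043, edgeR adjusted p = 0.00033). *POLE2*, the second subunit of polymerase epsilon, had 21.7, 21.6 and 20.8 CPM in sgScr and 18.4 and 15.6 CPM in sg*FOS* (log2 fold change -0.33, SE 0.091, edgeR adjusted p = 0.0068). The sg*FOS* libraries were both lower but unequal, and without sg*FOS* 2 the value was -0.22. *POLE2* missed the threshold in DESeq2 (adjusted p = 0.062), and its call was lost in 3 of the other settings and kept in 12. *POLE4*, a small accessory subunit, had a log2 fold change of -0.014.

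*PCNA* had 195, 198 and 196 CPM in sgScr and 172 and 169 CPM in sg*FOS*. The scramble values were nearly equal and the edited values clearly beneath them, with a log2 fold change of -0.20 (SE 0.037, edgeR adjusted p = 0.00011). *RFC4*, a small subunit of the clamp loader, went from 46.4, 46.9 and 46.9 CPM in sgScr to 39.0 and 37.8 CPM in sg*FOS* (log2 fold change -0.28, SE 0.060, edgeR adjusted p = 0.00053). Of the 5 loader subunits, *RFC3* and *RFC4* were called lower. The RPA genes took different signs. *RPA3*, the smallest subunit, had 37.4, 40.3 and 38.0 CPM in sgScr and 35.2 and 30.7 CPM in sg*FOS* and was called lower (log2 fold change -0.22, SE 0.069, edgeR adjusted p = 0.016). Its 2 sg*FOS* libraries lay apart from each other, and without sg*FOS* 2 the value was -0.13. *RPA3* missed the threshold in DESeq2 (adjusted p = 0.11), and its call was lost in 4 of the other settings and kept in 11. *RPA2* stood at 0.11 and *RPA1* at -0.050, neither called. *FEN1* and *LIG1*, which trim and seal Okazaki fragments, stood at -0.00058 and -0.066 and were not called.

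Of the nucleotide synthesis genes, 3 of 4 were called lower. *RRM2*, the S phase subunit of ribonucleotide reductase, had 298, 292 and 303 CPM in sgScr and 262 and 278 CPM in sg*FOS*, so that both edited libraries were lower (log2 fold change -0.14, SE 0.037, edgeR adjusted p = 0.0053). *RRM1* and *TK1*, the other reductase subunit and the salvage kinase for thymidine, were at -0.13 and -0.11. None of the 3 genes for chromatin behind the fork (*CHAF1A*, *CHAF1B*, *UHRF1*) was called, with values from -0.097 to -0.020.

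Of the regulators of S phase entry, *CCNE1* alone was called, and it was higher. *CCNE1*, the cyclin E1 that activates CDK2 late in G1, rose from 31.6, 30.7 and 31.0 CPM in sgScr to 41.2 and 40.5 CPM in sg*FOS*. On GRCh37 the gene spans 30302898 to 30315219 of chromosome 19. The edited libraries were clearly higher, with a log2 fold change of 0.40 (SE 0.065, edgeR adjusted p = 1.0e-05). *CCNE2* had 10.3, 9.52 and 9.13 CPM in sgScr and 10.8 and 10.9 CPM in sg*FOS* (log2 fold change 0.17, SE 0.12, edgeR adjusted p = 0.36). *E2F1*, the transcription factor itself, had 59.2, 56.2 and 54.4 CPM in sgScr and 53.8 and 56.7 CPM in sg*FOS*. Its groups overlapped, and its log2 fold change was -0.033 (SE 0.055, edgeR adjusted p = 0.73).

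Set beside the promoter words, 13 of the 23 genes with an E2F word were called lower in sg*FOS* cells, and their median change was -0.16 on the log2 scale. Of the 24 genes with a window but no such word, 12 were called lower, with a median of -0.13. The difference between these groups was not tested. All 6 genes with printed stretches were below 0, from -0.20 for *MCM3* and *PCNA* to -0.014 for *POLE4*, which turned to 0.014 with the length and GC correction.

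Genes next to this set in the cell cycle were read from lists chosen with earlier results of these data known. Of all genes tested in sg*FOS* against sgScr, 10.5% were called lower and 12.2% higher, and the counts of each list stand beside these shares. Of 63 further genes of replication and nucleotide supply, 23 were called lower and 2 higher in sg*FOS* cells, and the median of the list was -0.12 on the log2 scale. The named examples were *E2F2* (23.5, 23.2 and 21.9 CPM in sgScr, 18.2 and 15.8 CPM in sg*FOS*, log2 fold change -0.42) and *E2F8* (-0.41), E2F factors that activate and repress S phase genes, respectively. Of the 63 genes 9 were above 0. The 2 called among these were *RRM2B*, the reductase subunit used outside S phase, and *CTPS1*, a CTP synthase (0.38 and 0.14). Genes of the G2 and M phases went further, with 42 of 47 called lower and 0 higher, a median of -0.28, and the kinetochore genes *SPC24* and *NUF2* at -0.47 and -0.46. No gene of that list was above 0. In the G1 list, 4 of 24 tested genes were called higher and 5 lower. *CDKN1A*, the CDK inhibitor p21, rose from 118, 111 and 119 CPM in sgScr to 275 and 264 CPM in sg*FOS* (log2 fold change 1.22, SE 0.038, edgeR adjusted p = 6.5e-25). *CCND1*, cyclin D1, was higher by 0.44, and *CCNG2* and *CDKN2C* had values of -0.46 and -0.45. *CDKN2A*, another CDK inhibitor, had 0 counts in 8 libraries and 1 count in sg*FOS* 1. Of the 13 epithelial and A549 markers, 6 were called higher and 3 lower in this comparison. Their summed level was 23969 to 24896 CPM in sgScr and 24601 to 25319 CPM in sg*FOS*, and its part in the replication values was not tested. The summed level of the 8 immune markers was 37.7 to 39.7 CPM in sgScr and 53.6 to 56.5 CPM in sg*FOS*, and *CD68*, a lysosomal protein of macrophages, was called higher (log2 fold change 0.65, edgeR adjusted p = 2.9e-10), while *PTPRC* stayed at 0. The 8 fibroblast markers summed to 14.0 to 14.8 CPM in sgScr and 18.5 to 19.5 CPM in sg*FOS*. The rise lay almost wholly in *COL1A1* (means of 6.80 and 9.27 CPM) and *THY1* (6.52 and 8.50 CPM), both called higher (0.45 and 0.38). Of the 8 markers 3 were tested, 2 above 0 and 1 below. Whether these markers bear on the replication values was not tested either.

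The comparison of *LA* with control cells set cells with the fusion beside A549 without it. The labels call the controls A549 only, so the fusion, Cas9, the viral guides and growth from single cells cannot be told apart. Here 35 of the 54 genes were below 0 (48.3% of all 14425 genes tested), and their median was -0.21 on the log2 scale, against 0.044 over all genes. In edgeR's quasi-likelihood test with Benjamini-Hochberg adjustment, 8 genes were called lower, 14.8% of the members where 9.94% of all genes were. None was called higher, where 9.57% of all genes were, with 2 higher at an unadjusted p under 0.05 and 1 higher in DESeq2. The values ran from -1.99 for *POLD4* to 1.25 for *CCNE2*, and for 19 genes both *LA* libraries lay below both controls (30.0% of all genes) and for 7 above them (33.8%). With the threshold on the fold and the unadjusted p, 15 were lower (17.1% of all genes) and 2 higher (17.4%). Under a scaling by library size alone, the median of the members was 0.053 and that of all genes 0.33. The summed level of the 13 epithelial and A549 markers was 49410 and 39330 CPM in control and 25328 and 33040 CPM in *LA*, with 10 of 13 below 0 and 1 called, *CDH1*, at 2.28. Its part in the replication values was not tested.

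The 8 genes have short transcripts. *POLD4*, the smallest subunit of polymerase delta (GRCh37 chromosome 11, 67118243 to 67124443), had 364 and 164 CPM in control and 66.1 and 68.6 CPM in *LA*, a log2 fold change of -1.99 (SE 0.44, edgeR adjusted p = 0.0037). *POLD2*, the second subunit of that enzyme, had 429 and 215 CPM in control and 109 and 97.1 CPM in *LA* (-1.66, SE 0.43, edgeR adjusted p = 0.0097). For both, the lower control was still well above the *LA* libraries. *POLE4* had 134 and 59.8 CPM in control and 26.5 and 26.6 CPM in *LA* (log2 fold change -1.88, SE 0.44, edgeR adjusted p = 0.0049). *RPA3* had 148 and 75.6 CPM in control and 33.0 and 24.2 CPM in *LA* (-1.98, SE 0.43, edgeR adjusted p = 0.0034). In each of these genes control 1 lay far above control 2.

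*GINS2*, a subunit of the GINS complex of the active helicase, had 159 and 88.5 CPM in control and 40.9 and 28.7 CPM in *LA* (log2 fold change -1.85, SE 0.42, edgeR adjusted p = 0.0048). *TK1* had 642 and 319 CPM in control and 178 and 169 CPM in *LA* (-1.49, SE 0.43, edgeR adjusted p = 0.019). Again no *LA* library reached a control library. *PCNA* had 556 and 417 CPM in control and 229 and 144 CPM in *LA* (-1.40, SE 0.43, edgeR adjusted p = 0.024). *RFC4* had 77.5 and 66.1 CPM in control and 39.9 and 24.0 CPM in *LA* (-1.18, SE 0.41, edgeR adjusted p = 0.046). *PCNA* and *RFC4* were the only called genes in which the *LA* libraries differed by a larger ratio than the controls did.

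Of the genes described whatever they showed, *PCNA* was called and the following were not. *CDC6* had 81.4 and 98.0 CPM in control and 132 and 97.1 CPM in *LA* (log2 fold change 0.33, SE 0.40, edgeR adjusted p = 0.59), and it was -0.20 with the length and GC correction. *RRM2* had 213 and 282 CPM in control and 299 and 145 CPM in *LA*, with both controls inside the *LA* range (-0.18, SE 0.43, edgeR adjusted p = 0.81). *E2F1* had 106 and 72.1 CPM in control and 83.6 and 90.3 CPM in *LA* (-0.053, SE 0.39, edgeR adjusted p = 0.94). *CDT1* had 138 and 72.5 CPM in control and 55.6 and 41.5 CPM in *LA* (-1.13, SE 0.42, edgeR adjusted p = 0.058), and it was called in DESeq2 (adjusted p = 0.040). *POLA1*, the catalytic subunit of polymerase alpha, and *CCNE2* were the genes higher at an unadjusted p under 0.05, at 1.19 (SE 0.42, edgeR adjusted p = 0.051) and 1.25 (SE 0.58, adjusted p = 0.13), and *POLA1* was called in DESeq2 (adjusted p = 0.034). By complex, the licensing loaders took opposite signs, 5 of 6 MCM genes were below 0 with none called, and all 3 fork protection genes were above 0 with none called. With library size alone *MCM2*, *MCM3* and *MCM6* turned above 0. With the length and GC correction the fork protection genes turned below 0, to -0.40 for *WDHD1*, -0.50 for *CLSPN* and -0.030 for *TIMELESS*.

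The fold changes followed the length of the transcript. All 8 called genes have transcripts of 1097 to 2628 bases, and the median over the 54 genes is 3123 bases. Across the members the fold change had a Spearman correlation of 0.633 with length and -0.421 with GC content. Across all genes the values were 0.574 and -0.307. These correlations are across genes that share the same 4 libraries, and they carry no test. A split by length was made for the members only, so its counts have no share of all genes beside them. Of the 27 genes at or below the median length, 23 were below 0 and 8 were called lower, with a median of -0.70. Of the 27 longer genes, 12 were below 0 and none was called, with a median of 0.13. After a correction for length and GC content within each library, the medians of these groups were -0.37 and -0.33, against -0.056 over all genes. The share of all genes called with the correction is not given here. In that fit edgeR called 6 of the 54 genes lower and none higher (2 higher at an unadjusted p under 0.05). Of these, *POLD4*, *POLE4*, *GINS2* and *RPA3* had been called without it, at -1.30, -1.15, -1.86 and -1.83 with it. The calls lost were those of *POLD2* (-0.88, edgeR adjusted p = 0.061), *PCNA* (-0.87, adjusted p = 0.077), *RFC4* (-0.69, adjusted p = 0.13) and *TK1* (-0.57, adjusted p = 0.18). The corrected calls not made before were *MCM5*, a ring subunit, at -1.07, and *POLA2*, the second subunit of polymerase alpha, at -0.91. Whether the length trend arose in the cells or in the libraries was not tested.

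**Figure D3:**
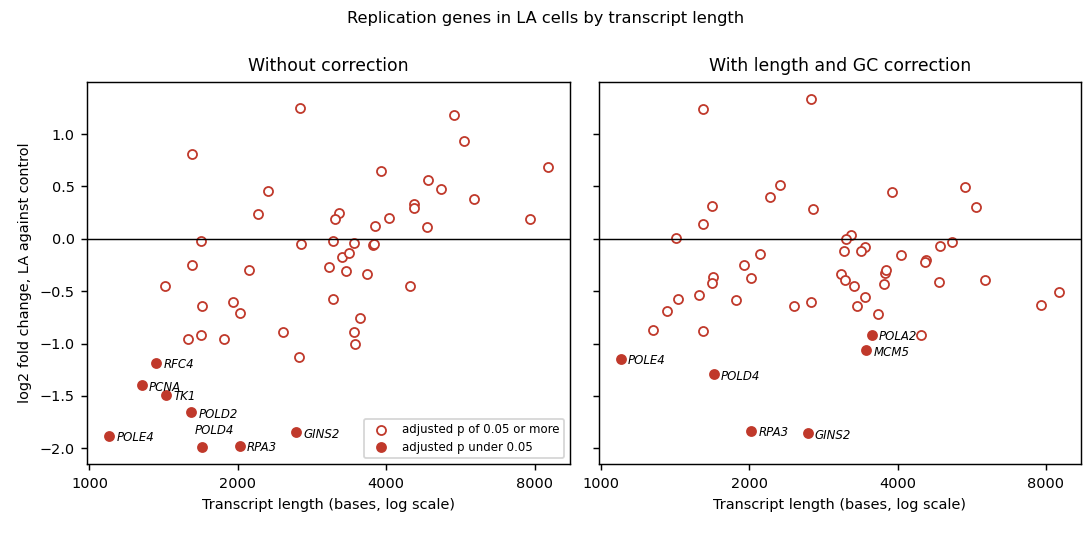
log2 fold change of the 54 genes in *LA* against control (vertical axis) by transcript length in bases (log scale), without correction on the left and with the length and GC correction on the right, with filled and named points for an adjusted p under 0.05. On the left the points rise with length and the 8 filled ones are at or under 2628 bases, and on the right most points of any length lie below 0.

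The *LA* libraries also differed from each other across this set. *LA* 1 was above *LA* 2 in 49 of 54 genes, with a median log2 ratio of 0.43, whereas *LA* 1 was higher in 47.9% of all genes, with a median of -0.024. The ratio ran from -0.28 for *GINS3* to 1.20 for *DBF4*. The controls split evenly, with control 1 higher in 27 of 54 genes, but over a wide range, from -1.75 for *CCNE2* to 1.16 for *POLE4*. Without *LA* 2 the median of the members in *LA* against control was -0.0038, and without *LA* 1 it was -0.54. With either *LA* library left out no member passed the adjusted threshold in edgeR (7 and 8 at an unadjusted p under 0.05, respectively), the lone library being assumed to vary like the other group. A lone control library was assumed to vary likewise, so the counts without control 1 or control 2 enter only the range over settings given below.

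Compared with the mean of the sgScr libraries, *LA* 1 lay at a median log2 ratio of -0.040, with 31 of 54 genes below 0, and *LA* 2 at -0.51, with 51 below 0. Both sg*FOS* libraries lay between, at -0.13 and -0.16, with 49 and 48 genes below 0. The control libraries were centred near 0, at -0.077 and -0.025, but their genes were spread widely, as the plot of ratios to sgScr shows. Over all genes the medians of these 6 libraries ran from -0.027 to 0.010.

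**Figure D4:**
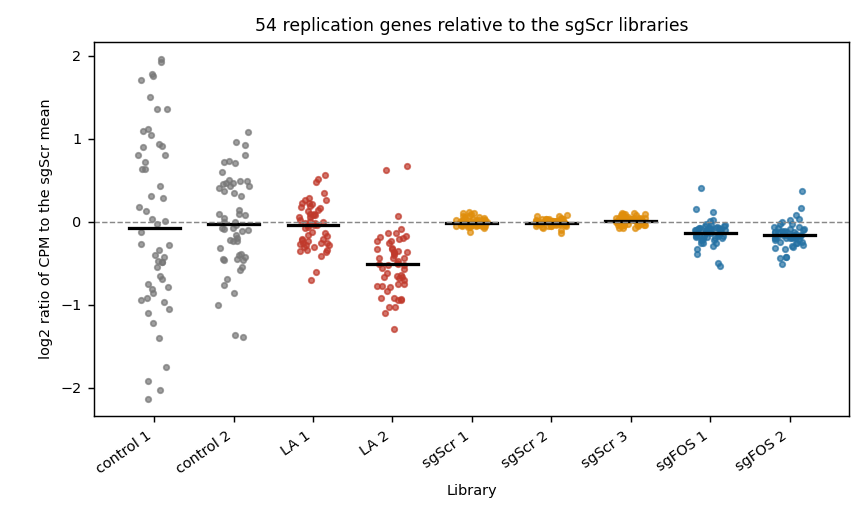
log2 ratio of each gene's CPM to its mean over the sgScr libraries (vertical axis) in each of the 9 libraries (horizontal axis), with a point for each of the 54 genes and a bar at the median. The *LA* 2 cloud sits lowest with a median of -0.51, the sg*FOS* clouds are narrow with medians of -0.13 and -0.16, and the control clouds are the widest.

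In sgScr against *LA*, which sets the scramble guide beside cells with the fusion alone, 46 of 54 genes were above 0 and 8 below (51.5% of all 14521 genes tested), and the median was 0.25 on the log2 scale, against -0.016 over all genes. For 27 genes all sgScr libraries lay above both *LA* libraries (29.5% of all genes), and for 3 below them (27.2%). In edgeR's test 7 genes were called higher (13.0% of the members, 10.6% of all genes) and 2 lower (12.3% of all genes). This comparison shares its *LA* libraries with the comparison of *LA* with control, and its size turned on which *LA* library was in it. Without *LA* 2 the median was 0.023, and without *LA* 1 it was 0.51. In both of these fits the spread came from the sgScr libraries alone, which lay close together. The single *LA* library was assumed to vary like them, so counts of called genes from these fits enter only the range over settings given below. With any 1 of the sgScr libraries left out none was called in edgeR (10 at an unadjusted p under 0.05).

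*GINS1*, a partner of *GINS2* in the helicase, had 82.9 and 51.3 CPM in *LA* and 112, 111 and 110 CPM in sgScr (log2 fold change 0.70, SE 0.20, edgeR adjusted p = 0.0497). *POLD2* had 109 and 97.1 CPM in *LA* and 161, 171 and 168 CPM in sgScr (0.67, SE 0.092, edgeR adjusted p = 0.0072). For both genes each scramble library was higher. *E2F1* went the other way, with 83.6 and 90.3 CPM in *LA* and 59.2, 56.2 and 54.4 CPM in sgScr (-0.64, SE 0.088, edgeR adjusted p = 0.0073). *GINS3* had 22.7 and 27.7 CPM in *LA* and 19.2, 17.4 and 16.8 CPM in sgScr (-0.52, SE 0.13, edgeR adjusted p = 0.040), also without overlap. The remaining called genes were *MCM7*, *POLD4*, *RPA1*, *CHAF1A* and *UHRF1*, all higher. *PCNA*, *RRM2*, *CDC6* and *CDT1* were not called, at 0.051, 0.40, -0.084 and 0.12.

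In *LA* against control, 9.57% of all genes were called higher and 9.94% lower. The wider replication list gave 2 genes higher and 5 lower of 63, both smaller shares than over all genes. *RIF1*, which times origin firing, and *E2F7*, a repressor of the E2F family, were at 1.79 and 1.40, and *RNASEH2C* and *DTYMK*, a ribonuclease subunit and the thymidylate kinase, at -1.74 each. The G2 and M list gave 1 higher (*ASPM*, a spindle pole protein, 1.52) and 7 lower of 47, the first 2 being *PTTG1*, or securin, at -2.63 and *UBE2S*, a ubiquitin enzyme of mitotic exit, at -1.76. In the G1 list 3 were higher and 2 lower of 25 tested, with *RBL2* at 1.65, *CDK6* at 1.59, *LIN37* at -2.01 and *CDK4* at -1.32. In sgScr against *LA*, 10.6% of all genes were called higher and 12.3% lower. The wider list had 6 called genes of 63, all higher and a smaller share than over all genes. They included *CDK2*, the kinase of cyclin E, at 0.94 and *CHTF8*, part of another clamp loader, at 0.93. The G2 and M list had 9 called genes, all higher, with *SPC24* at 1.24 and the ubiquitin enzyme *UBE2C* at 0.91, and the G1 list had 4 higher and 3 lower, with *CCNG2* at 0.93, *CDK4* at 0.61, *CDK6* at -0.53 and *LIN54* at -0.41.

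Levels were also set side by side between subunits as RPKM, that is, per length of the canonical transcript. *PCNA*, *TK1* and *MCM7* ranked among the 4 highest of the 54 genes in every library, and *CCNE2* was the lowest in each. *MCM7* was the highest of the 6 ring genes in all 9 libraries, at 97.0 to 252 RPKM, although the ring proteins act in equal number. The highest ring gene exceeded the lowest 6.98-fold in control 1, 4.40-fold in control 2 and 3.05- to 4.04-fold in the libraries with the fusion.

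**Figure D5:**
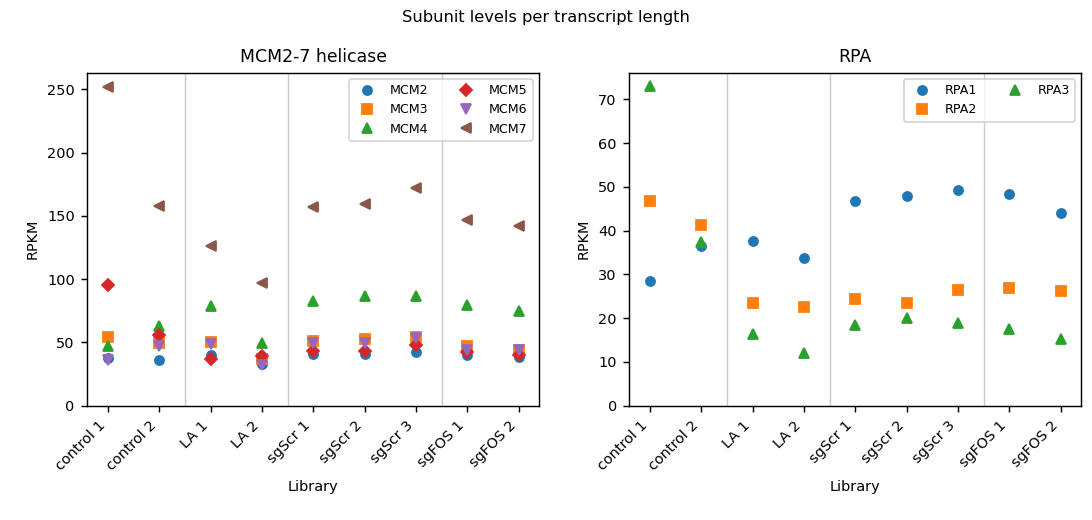
RPKM (vertical axis, linear from 0) of the 6 ring genes on the left and the 3 RPA genes on the right in each of the 9 libraries. *MCM7* lies above the other ring genes throughout, at 97.0 to 252 RPKM, and *RPA3* is the highest RPA gene in control 1 and the lowest in every library with the fusion.

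The order of the RPA genes differed between libraries. *RPA3* was highest in control 1 at 73.0 RPKM, where *RPA1*, the large DNA-binding subunit, was lowest at 28.5 RPKM. In control 2 the 3 genes lay within 1.13-fold of each other. In all 7 libraries with the fusion *RPA1* was highest, at 33.6 to 49.3 RPKM, and *RPA3* lowest, at 12.0 to 20.0 RPKM. For polymerase delta, *POLD2* was highest and *POLD3* lowest throughout, and their ratio was 35.1 in control 1, 16.2 in control 2 and 5.98 to 10.5 in the libraries with the fusion. The clamp loader had *RFC1*, its large subunit, at the lowest level in all 9 libraries. In GINS, *GINS2* was highest in both controls and *GINS1* in every library with the fusion. *RRM2* exceeded *RRM1* by 1.07- to 1.74-fold, lowest in *LA* 2 and highest in control 1. These ratios depend on the transcript chosen for each length, and they set genes of unlike length side by side in libraries that differ along length.

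Exons of 21 of the 54 genes overlap another annotated gene, and the strand setting of the counting is not given in the sources used here. *TYMS*, thymidylate synthase, shares 967 of the 1613 bases of its transcript with *ENOSF1* on the opposite strand. It had 61 and 207 counts in control, 261 and 234 in *LA*, 311, 292 and 250 in sgScr, and 192 and 196 in sg*FOS*. Control 1 was lowest by far, and the gene was not called in any of the 3 comparisons. *CCNE2* shares 1522 of 2674 bases with *INTS8*. *PRIM2* shares 836 of 1683 bases with a long noncoding RNA gene annotated on the same strand. The counts of both are therefore uncertain. Of the 38 genes called in any comparison, 12 share bases with another annotated gene. *POLA2* shares the most, 1978 of 3544 bases with a gene on the same strand, followed by *POLD4* with 650 bases, *POLD1* with 426, *PRIM1* with 362 and *GINS3* with 317, and the others share 280 or fewer.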

How the data were processed

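The deposited table gives, for 9 libraries, whole-number counts per gene as the authors made them, without normalization. Per the methods and the labels, stranded mRNA libraries were sequenced as 150-bp read pairs, STAR 2.7.10b placed them on hg19, and the authors used DESeq2 1.26.0. How reads were assigned to genes (program, annotation, strand) is not given in the sources used here. The member genes, the neighbouring lists and the tests were chosen with earlier results of these data known.

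All genes were fitted in R 4.3.3 with edgeR 4.0.16 (TMM, filterByExpr, two-sided quasi-likelihood test), each comparison on its own libraries, with Benjamini-Hochberg adjustment over all genes tested. A gene is called at an adjusted p under 0.05. Alternatives were DESeq2 1.42.0, other scalings and filters, stricter thresholds, all 9 libraries in 1 fit, the replicate number as a block, each library left out, and a length and GC correction (loess, span 0.5, in each library, as an offset). Transcript lengths came from GENCODE release 44 on GRCh37 and promoters from RefSeq. Plots used Python 3.11.15. The fits were tested on simulated counts.

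Per-library values are given for called genes (at most 8 in each direction in *LA* against control, the largest change in each complex in sg*FOS* against sgScr, and the 2 largest in each direction in sgScr against *LA*), and for *PCNA*, *RRM2*, *CDC6*, *CDT1* and *E2F1* whatever they showed. Of the neighbouring lists at most 2 called genes in each direction were named, with a mean of at least 50 counts. *CCNE2*, *CDC7*, *DBF4*, *POLA1* and other members outside this rule were named after their values were seen. Same-numbered libraries did not deviate together (correlation -0.22, -0.068 and -0.027 in the 3 comparisons), so the numbers were not taken as pairs. Counting error only is covered by the count totals, and the reads carry no molecular identifiers.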

Additional observations from a re-analysis of the deposited data

How the results depend on the processing

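In sg*FOS* against sgScr, the number of called members was 20 to 32 under 10 other settings, and the median over the members stayed between -0.16 and -0.13 in every setting run. It was 1 at the study's threshold, 0 with all 9 libraries in 1 edgeR fit (also 0 at an unadjusted p under 0.05), and 16 to 30 with a library left out. In *LA* against control it was 17 at the study's threshold, 5 at an adjusted p under 0.01, 21 with all 9 libraries in 1 fit, and 0 to 22 with a library left out. In sgScr against *LA* it was 3 at an adjusted p under 0.01, 1 with all 9 libraries, and 0 to 49 with a library left out. With the replicate block the counts were 5 in *LA* against control, 26 in sg*FOS* against sgScr and 0 in sgScr against *LA* (8 at an unadjusted p under 0.05), and the block with the length and GC correction gave 11, 24 and 1. A crossed pairing of *LA* and control, added after seeing the data, called 14 (3 higher, 11 lower). The share of all genes called is not given beside most of these settings. Their counts show how far the calls moved, not how the members stand against all genes. Where leaving a library out left a lone library in a group, it was assumed to vary like the other group. The counts of those fits rest on that assumption. This holds for every such fit in *LA* against control, and for those without an *LA* or an sg*FOS* library in the other comparisons. With a library left out, the members' median ran from -0.54 to -0.0038 in *LA* against control and from 0.023 to 0.51 in sgScr against *LA*. Summed over the members, library size alone gave a group mean of 5484 CPM in sgScr and 4971 CPM in sg*FOS*.

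No called member changed sign with the length and GC correction or with library size alone. Of the members not called, the correction turned 15 in *LA* against control (11 of them from above 0 to below), 1 in sg*FOS* against sgScr (*POLE4*) and 3 in sgScr against *LA*, and library size alone turned 10 (all from below 0 to above), 1 (*FEN1*) and 2. Among the genes given with per-library values in *LA* against control, those that turned under these or other settings were *RRM2* (0.084 with library size alone; -0.83 to 0.27 with a library left out), *CDC6* (-0.20 with the length and GC correction, -0.21 with the block added) and *E2F1* (0.26 with library size alone, 0.28 with the correction, 0.28 with the block added; -0.37 to 0.20 with a library left out). In sg*FOS* against sgScr *E2F1* ran from -0.073 to 0.0034 with a library left out. In sgScr against *LA*, *PCNA* was -0.024 with the correction and -0.017 with the block added, and *FOS* was 0.14 with the block and 0.12 with both. With a library left out, *PCNA* ran from -0.24 to 0.44, *RRM2* from -0.023 to 1.03, *CDC6* from -0.29 to 0.17, *CDT1* from -0.075 to 0.36, *CCNE1* from -0.078 to 0.93 and *FOS* from -0.76 to 1.10, each turning with the *LA* library left out. The causes were not tested.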
